A study of Mus musculus with 16 samples.

Results

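The genes described here are 8 myosin heavy chain genes, Myo1c, Myo1d, Myo1e, Myo1f, Myo1g, Myo9b, Myo10 and Myh9, taken by name from a table of 24421 genes. They were measured by RNA sequencing in naive T cells of the lymph nodes of C57BL/6 mice. The naive gate kept CD25-negative cells that were CD62L high and CD44 low. CD8+ and CD4+ cells were each sorted into the third that carried the most CD5 on its surface (CD5hi) and the third that carried the least (CD5lo). The 4 groups, CD8 CD5hi, CD8 CD5lo, CD4 CD5hi and CD4 CD5lo, had 4 biological replicates each, 16 libraries in all. All groups share the strain, the organ and the naive gate, and no group carries a transgene, deletion or treatment in the labels. The sources used here do not say whether each replicate was its own animal, so p-values measure the spread between these samples, which may in part be technical.

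Myosins are motors that hydrolyse ATP to pull on actin filaments, and the heavy chain carries the motor. Myosin IIA, whose heavy chain is Myh9, assembles into contractile bipolar filaments and drives the retraction of the rear of a crawling T cell. Class I myosins are single-headed and bind membranes through their tails: Myo1c, Myo1d and Myo1g have short tails, while Myo1e and Myo1f have long tails that end in an SH3 domain. Myo9b carries a domain that switches off a small GTPase, and Myo10 moves to the tips of filopodia. CD5 is a surface receptor that dampens signalling by the T cell receptor, and naive T cells differ in how much of it they carry.

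What the 8 proteins share is the motor, and the codons of its ATP-binding P-loop are set side by side here. The bases that differ are counted and do not measure how closely the genes are related. The 24 bases were found in GENCODE vM21 transcripts (GRCm38) and are given 5′ to 3′, with bases that differ from Myh9 in capitals.
Myh9: ggggagtctggagcagggaagaca
Myo1g: ggggagAGtggGgcagggaagaca
Myo1f: ggggagAGCggagcTgggaagaca
Myo1c: ggAgagAGtggGgcaggCaagaca
Myo1d: ggggaAAGtggagcTggTaaAaca
Myo1e: ggTgaAAGtggTgcTggAaagaca
Myo9b: ggTgagAGtggCTcTggCaagaca
Myo10: ggggaAAGCggagcTgggaaAacG
Myo1g differed from Myh9 at 3 of these bases, Myo1f at 4, Myo1c at 5, Myo1d at 6, and Myo1e, Myo9b and Myo10 at 7 each. Over longer stretches the transcripts are distinct: 6 of the 8 genes shared no run of 50 bases with a transcript of another gene. Myh9 shared 1.11% of its 50-base runs with Myh10, and Myo9b shared 0.87% with Haus8, which it overlaps on the opposite strand by 116 exonic bases (1.55%). Reads of those stretches cannot be assigned with certainty.

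Libraries held 71447252 to 93418385 counts (median 78528233). Levels are given in CPM, which are counts scaled to a common library size with TMM, a method that corrects for differences in library composition. The 16 libraries matched the sort: Cd5 RNA lay at 469 to 552 CPM in CD8 CD5hi and 187 to 216 CPM in CD8 CD5lo libraries, and at 1349 to 1427 CPM in CD4 CD5hi and 237 to 276 CPM in CD4 CD5lo libraries. The 8 T cell markers of the list summed to 4669 to 6596 CPM in each library. In CD8 CD5hi replicate 4, CD8 CD5lo replicate 3 and CD4 CD5lo replicate 3, 16 B cell markers summed to 1009, 621 and 395 CPM, against 11.4 to 73.9 CPM in the other 13. Cd74, an MHC class II chaperone, stood at 319.5, 192 and 135 CPM in these 3. Lyz2, a myeloid marker, stood at 10.75, 6.64 and 3.37 CPM in them, against 0.047 to 1.05 CPM in the other 13. Foxp3, a regulatory T cell marker, stood at 8.31 CPM in CD8 CD5hi replicate 4, against 1.47 to 2.35 CPM in the rest of its group. In CD8 CD5lo replicate 3 it stood at 4.16 CPM, against 1.45 to 1.70 CPM in the rest of that group. Cd4 RNA stood at 62.2 and 27.2 CPM in the CD8 libraries among them, above the other CD8 libraries. In the CD4 library Cd8a stood at 11.4 CPM, against 2.02 to 5.49 CPM in the other CD4 CD5lo libraries, while Cd8b1, at 30.3 CPM, was close to the 25.5 to 29.6 CPM of those. These 3 are called the B cell marker-rich libraries, and results that rest on them are given with and without them. The name gives the markers that set them apart and does not mean that only B cell RNA was raised.

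All 8 genes passed the filter on low counts, but their levels spanned more than 3 orders of magnitude. Levels of different genes were compared per kilobase of merged exon. Myh9, on chromosome 15 (77760587 to 77842175), led in every group, at 207 ± 31.7, 192 ± 29.99, 199 ± 28.9 and 175 ± 35.6 CPM per kb in CD8 CD5hi, CD8 CD5lo, CD4 CD5hi and CD4 CD5lo cells (SD, n = 4 each). It made up 52.2 to 64.9% of the summed level of the 8 genes in a library. Myo1g, on chromosome 11 (6506548 to 6520965), followed by mean with 57.6 to 68.9 CPM per kb, and Myo9b, on chromosome 8 (71272714 to 71360713), came next with 49.8 to 54.7 CPM per kb. These 3 genes held the same places in all 4 groups.

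The fourth place was taken by a different gene in each lineage. In CD8 cells it was Myo1f, at 23.4 ± 2.76 CPM per kb in CD8 CD5hi and 15.5 ± 1.02 in CD8 CD5lo cells. In CD4 cells it was Myo10, at 3.51 ± 0.81 CPM per kb in CD4 CD5hi and 4.52 ± 1.14 in CD4 CD5lo cells. Myo1f was sixth or seventh in CD4 cells and Myo10 seventh in CD8 cells. Myo1c held the fifth place throughout, at 1.62 to 3.47 CPM per kb, and Myo1d the last, at 0.031 to 0.080 CPM per kb.

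**Figure D1:**
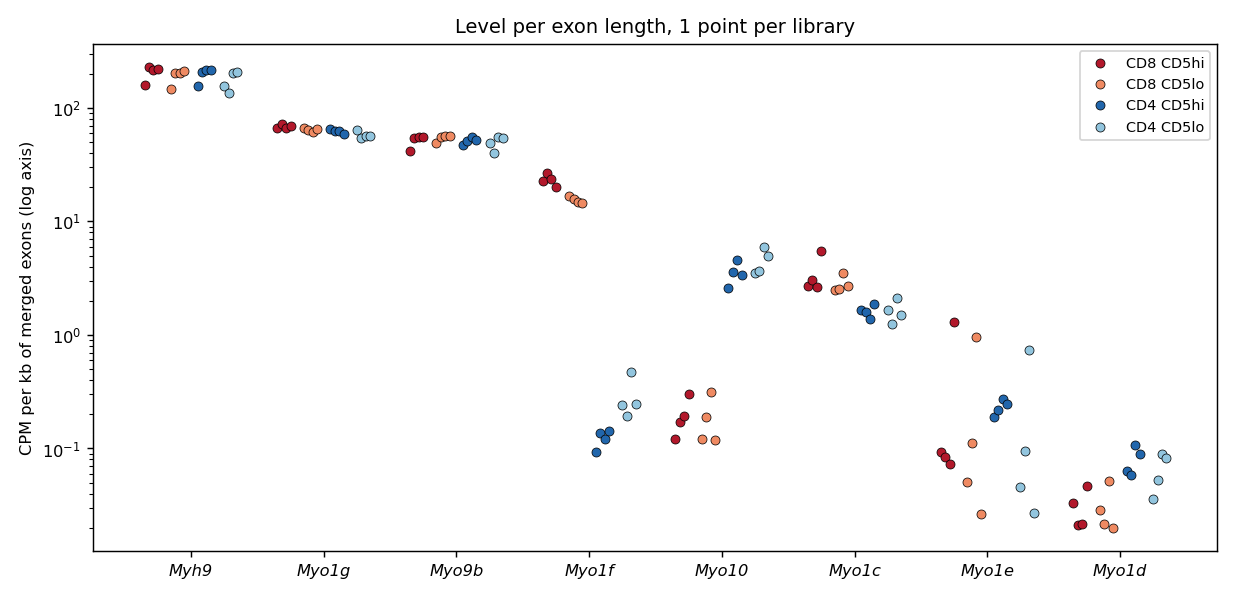
Level of each of the 8 myosin genes in CPM per kilobase of merged exon (log axis), with 1 point per library, coloured by group. Myh9, Myo1g and Myo9b form a flat upper tier in all 4 groups, while Myo1f is high in the CD8 groups and Myo10 in the CD4 groups.

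Between the lineages, Myo1f and Myo10 differed most of the 8 genes, each by more than 10-fold and in opposite directions. The share of all tested genes whose libraries do not overlap between groups was not counted, so overlap is given here only gene by gene. Myo1f, a long-tailed class I myosin known in mice for its part in neutrophil adhesion and migration, lies on chromosome 17 (33555707 to 33607764). It had 113.5, 133.5, 117 and 100.1 CPM in the 4 CD8 CD5hi libraries, against 0.46, 0.69, 0.60 and 0.70 CPM in the 4 CD4 CD5hi libraries. It had 83.6, 77.9, 73.2 and 72.6 CPM in CD8 CD5lo libraries, against 1.19, 0.96, 2.35 and 1.23 CPM in CD4 CD5lo libraries. Every CD8 library was above every CD4 library. The log2 difference was 7.56 ± 0.25 (188-fold) at high CD5, with an adjusted p of 5.64e-12, and 5.74 ± 0.23 (53.5-fold) at low CD5, with an adjusted p of 6.74e-11. All adjusted p-values are from edgeR's quasi-likelihood test over 13554 genes, called at 0.05, and errors of log2 differences are standard errors. In sorted bulk RNA, fewer cells of a type and less RNA per cell cannot be told apart.

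Myo10, whose tail binds phosphoinositides, microtubules and integrins, lies on chromosome 15 (25622525 to 25813673) and ran the other way. It had 1.23, 1.73, 1.97 and 3.04 CPM in CD8 CD5hi libraries, against 26.1, 36.25, 46.0 and 33.9 CPM in CD4 CD5hi libraries. It had 1.215, 1.90, 3.19 and 1.195 CPM in CD8 CD5lo libraries, against 35.6, 37.1, 59.9 and 50.3 CPM in CD4 CD5lo libraries. Again the lineages did not overlap, with CD4 libraries high. Myo10 was 17.8-fold lower in CD8 than in CD4 cells at high CD5 (log2 difference -4.16 ± 0.34, adjusted p = 1.16e-07) and 24.5-fold lower at low CD5 (-4.62 ± 0.34, adjusted p = 6.05e-08). The highest Myo10 value in each CD8 group was that of its B cell marker-rich library, and without the 3 such libraries the differences were -4.41 and -4.83.

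**Figure D2:**
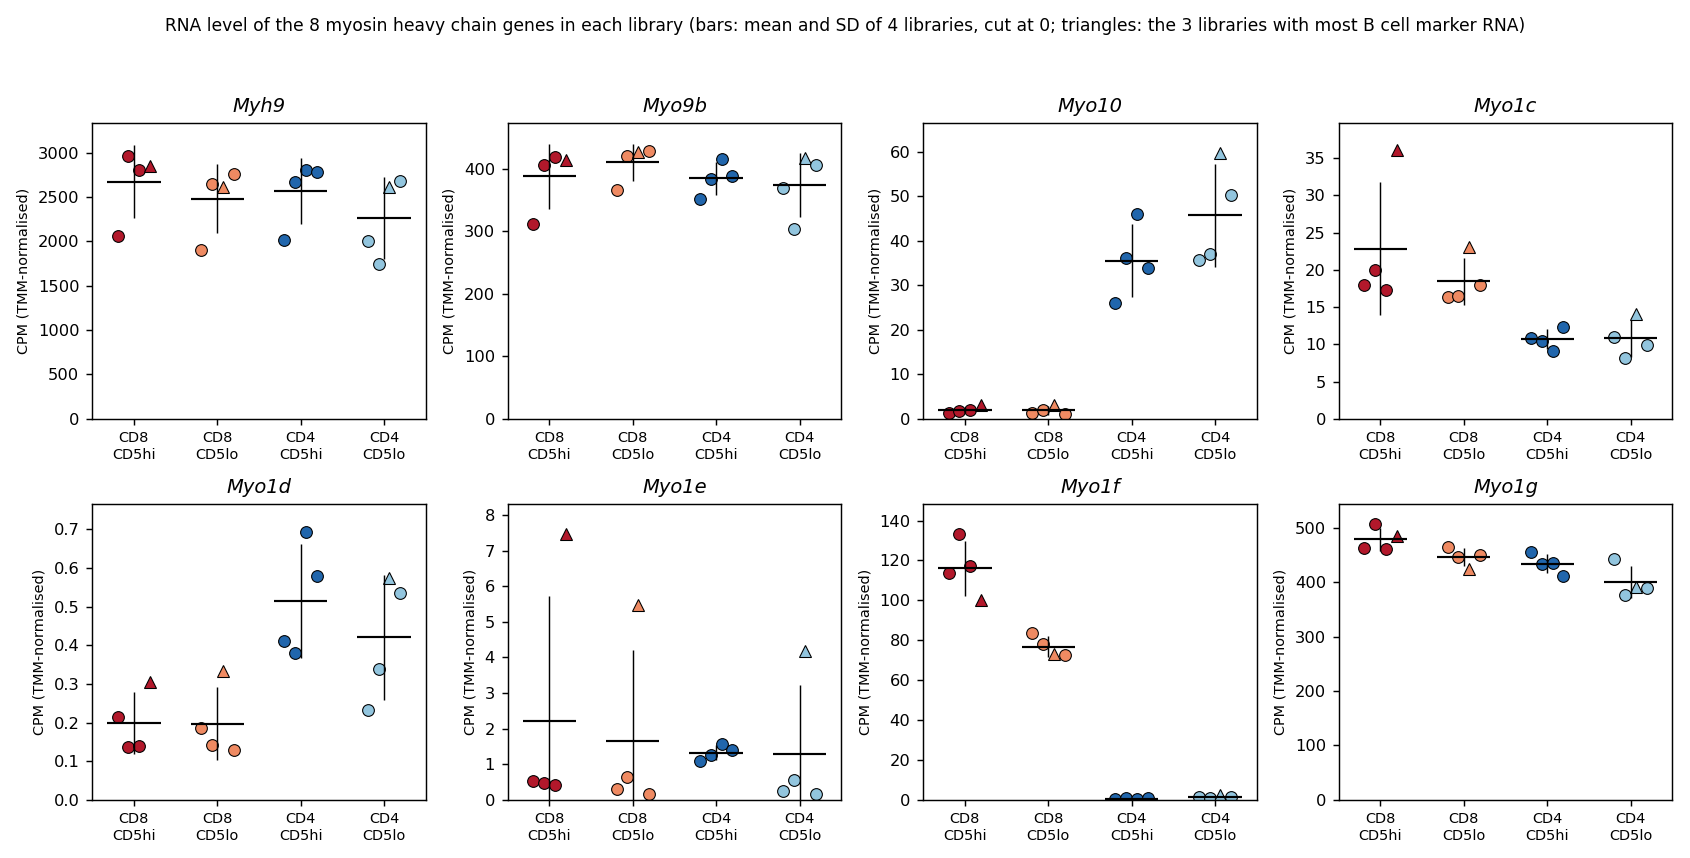
TMM-normalised CPM of each of the 8 genes in every library, by group, with a linear axis from 0; horizontal lines are means and vertical lines SDs of 4 libraries, and triangles mark the 3 libraries richest in B cell marker RNA. Myo1f separates CD8 from CD4 libraries upward and Myo10 downward, and the triangles stand above their groups for Myo1e.

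The promoters of these 2 genes are printed because their RNA differs most between the lineages. Each sequence is the 250 bases before the RefSeq start on GRCm38.p6, 5′ to 3′ on the plus strand, and RefSeq gives 2 such starts for Myo10. Capitals mark matches, on either strand, to an ETS core (CCGGAA), a RUNX core (TGTGGT), a KLF/SP box (GGGCGG), a serum response (CArG) element or an NF-kB site.
Myo1f promoter, chr17:33555457-33555706: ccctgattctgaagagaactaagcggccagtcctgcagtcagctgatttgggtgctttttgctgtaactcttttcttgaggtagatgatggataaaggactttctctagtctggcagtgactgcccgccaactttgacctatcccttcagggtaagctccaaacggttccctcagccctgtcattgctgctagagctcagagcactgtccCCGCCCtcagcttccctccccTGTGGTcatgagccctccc
Myo10 upstream promoter, chr15:25622300-25622549: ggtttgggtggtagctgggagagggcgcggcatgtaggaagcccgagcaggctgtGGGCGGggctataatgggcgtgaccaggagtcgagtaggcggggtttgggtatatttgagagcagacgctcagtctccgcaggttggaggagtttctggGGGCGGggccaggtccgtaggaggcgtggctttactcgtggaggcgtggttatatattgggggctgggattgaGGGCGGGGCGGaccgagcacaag
Myo10 inner promoter, chr15:25752956-25753205: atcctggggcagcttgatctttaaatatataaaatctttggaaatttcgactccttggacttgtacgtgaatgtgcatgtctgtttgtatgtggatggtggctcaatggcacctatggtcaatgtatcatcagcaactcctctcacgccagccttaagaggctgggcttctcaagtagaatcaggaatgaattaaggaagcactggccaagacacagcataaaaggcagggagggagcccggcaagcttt
The Myo1f window held 1 RUNX match, which begins 19 bases before the start, and 1 KLF/SP match on the other strand, and its GC content was 53.6%. The upstream Myo10 window held 4 KLF/SP matches, of which the last 2 overlap by 1 base, and 62.8% GC, while the inner Myo10 window held none of the 5 motifs at 46.0% GC. The inner start lies downstream of the P-loop codons of Myo10 (chr15:25722171-25722194), so RNA begun there would lack them. Counts per gene do not tell RNA of the 2 starts apart, and which start was used was not tested. Of 32851 RefSeq promoters of this length, 14.0% held the RUNX core, 32.7% the KLF/SP box, 12.0% the ETS core, 1.47% a CArG element and 3.9% an NF-kB site. RefSeq promoters were matched for 7 of the 8 genes, and the Myo1e window held a CArG element, while Myo9b and 2 of the 3 Myo1c windows held ETS cores. A match is a description of letters and not of binding.

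Myo1c and Myo1d differed between the lineages by less. Myo1c, a short-tailed myosin of vesicle delivery and membrane tension on chromosome 11 (75650504 to 75673910), had 17.9, 19.99, 17.3 and 36.1 CPM in CD8 CD5hi libraries, against 10.8, 10.5, 9.1 and 12.3 CPM in CD4 CD5hi libraries. In CD8 CD5lo libraries it had 16.3, 16.6, 23.03 and 18.0 CPM, against 11.03, 8.22, 14.05 and 9.97 CPM in CD4 CD5lo libraries. No CD8 library overlapped the CD4 libraries of the same CD5 level. Myo1c was 2.14-fold higher in CD8 cells at high CD5 (log2 difference 1.10 ± 0.22, adjusted p = 0.0012) and 1.71-fold higher at low CD5 (0.77 ± 0.22, adjusted p = 0.0192). The 36.1, 23.03 and 14.05 CPM are the B cell marker-rich libraries, each the highest of its group. Without them both differences were 0.80, with adjusted p = 0.000167 at high CD5 and 0.000556 at low CD5. The call at low CD5 was lost without CD4 CD5lo replicate 2, CD4 CD5lo replicate 4 or CD8 CD5lo replicate 3, with adjusted p of 0.0533 to 0.0665.

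Myo1d, on chromosome 11 (80482126 to 80780025), whose counterpart in flies sets left-right asymmetry, was near the limit of detection, with 12 to 54 counts in a library. It had 0.21, 0.14, 0.14 and 0.30 CPM in CD8 CD5hi libraries, against 0.41, 0.38, 0.69 and 0.58 CPM in CD4 CD5hi libraries, with no overlap. The difference of -1.38 ± 0.40 was 2.59-fold lower in CD8 cells (adjusted p = 0.0149). That call was lost without CD4 CD5hi replicate 3, CD8 CD5hi replicate 2 or CD8 CD5hi replicate 3, with adjusted p of 0.0525 to 0.0559. At low CD5 it had 0.18, 0.14, 0.33 and 0.13 CPM in CD8 libraries, against 0.23, 0.34, 0.57 and 0.54 CPM in CD4 libraries, which overlap. There the difference of -1.10 ± 0.40 did not pass (adjusted p = 0.067), but did with replicate number as a block (-1.08, adjusted p = 0.0285), without the 3 B cell marker-rich libraries (-1.28, adjusted p = 0.0495), and without CD4 CD5lo replicate 1 or CD8 CD5lo replicate 3 alone.

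Counted over the 8 genes, 4 were called between CD8 CD5hi and CD4 CD5hi cells, 2 of them higher and 2 lower in CD8, where 30.3% of all 13554 tested genes were called (15.6% higher and 14.8% lower). Between CD8 CD5lo and CD4 CD5lo cells 3 were called, 2 higher and 1 lower, where 19.5% of all tested genes were called (10% higher and 9.44% lower). With so few genes, neither count says that myosins as a group differ more often than other genes. The median log2 difference of the 8 genes was 0.10 at high CD5 and 0.15 at low CD5, against 0.01 and 0 for all tested genes. With the replicate block the count at low CD5 was 5, since Myo1d and Myo1g were also called, where 32.1% of all genes were, and at high CD5, where 46.7% of all genes were, it was 5. The 4 calls at high CD5 also held without the 3 B cell marker-rich libraries, where 30.3% of all tested genes were called, as did the 3 at low CD5, where 15.4% were.

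The 3 genes that lead per kilobase were not called between the lineages by edgeR with all libraries. Myo1g, a short-tailed myosin made mainly by blood cells and known in T cells for its part in membrane tension, had 463, 507, 462 and 485 CPM in CD8 CD5hi libraries, against 456, 433, 436 and 412 CPM in CD4 CD5hi libraries. It had 465.5, 446, 425 and 449 CPM in CD8 CD5lo libraries, against 443, 376, 392 and 390.3 CPM in CD4 CD5lo libraries. The groups did not overlap at high CD5 and did at low CD5. The log2 differences of 0.14 ± 0.06 (95% interval 0.01 to 0.27) and 0.16 ± 0.06 (0.03 to 0.29) did not pass, with adjusted p = 0.0906 and 0.0877. With the replicate block they passed at 0.14 (adjusted p = 0.0385) and 0.16 (adjusted p = 0.0338). They also passed without CD4 CD5lo replicate 1, at adjusted p = 0.0381 and 0.0208.

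Myo9b averaged 387 ± 51.4 CPM in CD8 CD5hi and 385 ± 26.6 in CD4 CD5hi cells, and 410.2 ± 29.7 CPM in CD8 CD5lo and 373.5 ± 50.9 in CD4 CD5lo cells (SD, n = 4 each). Its log2 differences between lineages were 0.01 (95% interval -0.22 to 0.24) and 0.135 (-0.09 to 0.36). Myh9 averaged 2673 ± 410.3 CPM in CD8 CD5hi and 2569 ± 375 in CD4 CD5hi cells, and 2484 ± 388 CPM in CD8 CD5lo and 2263 ± 459 in CD4 CD5lo cells. Its log2 differences were 0.06 (-0.28 to 0.40) and 0.13 (-0.20 to 0.47). Neither gene was called between lineages, and the intervals exclude a change of 1.5-fold for these 2 genes in either comparison.

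Between CD5hi and CD5lo cells, Myo1f was the only one of the 8 genes called by edgeR with all libraries (Myo1e joined it in CD4 cells without 3 of them, as described with that gene), and it moved in opposite directions in the lineages. In CD8 cells it was higher at high CD5, with 100.1 to 133.5 CPM in CD8 CD5hi against 72.6 to 83.6 CPM in CD8 CD5lo libraries, which do not overlap. The log2 difference was 0.60 ± 0.18 (1.51-fold, 95% interval 0.22 to 0.98, adjusted p = 0.0475). In CD4 cells it was lower at high CD5, with 0.46 to 0.70 CPM in CD4 CD5hi against 0.96 to 2.35 CPM in CD4 CD5lo libraries, again without overlap. The log2 difference was -1.22 ± 0.23 (2.33-fold lower, 95% interval -1.71 to -0.73, adjusted p = 0.00478). The CD5 effect in CD8 cells minus that in CD4 cells was tested directly and was 1.81 ± 0.29 on the log2 scale (1.19 to 2.44, adjusted p = 0.0172). Of all tested genes 9.46% were called in CD8 cells (5.95% higher and 3.51% lower), 4.08% in CD4 cells (2.68% higher and 1.4% lower) and 0.31% for the difference between the CD5 effects (0.177% higher and 0.133% lower). In each, 1 of the 8 genes was called.

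The CD8 call stood close to the threshold. It was lost when any CD8 library except CD8 CD5hi replicate 4 was left out, and without CD4 CD5hi replicate 2, 3 or 4 or CD4 CD5lo replicate 4, with adjusted p of 0.0551 to 0.147. It held in 14 of 25 alternatives, among them voom (adjusted p = 0.00105) and DESeq2 (0.0137). The log2 difference ranged from 0.52 to 0.66 over all of them. Without the 3 B cell marker-rich libraries the difference was 0.65 ± 0.12 (adjusted p = 0.00273, with 11% of tested genes called). Without them the CD4 difference was -0.87 ± 0.15 (adjusted p = 0.00287) and the difference between the effects was 1.52 ± 0.19 (adjusted p = 0.00244, with 0.951% of tested genes called). The CD4 call was lost with limma voom (adjusted p = 0.0617) and when only CD4 libraries were fitted (0.0612), and the difference between the effects was lost without CD8 CD5lo replicate 2 (0.0513).

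Other RNA moved with Myo1f in these comparisons. In CD4 libraries, where Myo1f rested on 36 to 58 counts in CD4 CD5hi and 71 to 180 in CD4 CD5lo, the RNA of both chains of the CD8 coreceptor was also lower at high CD5. Cd8b1 stood at 7.50 to 8.425 CPM in CD4 CD5hi and 25.5 to 30.3 CPM in CD4 CD5lo libraries, and Cd8a at 0.69 to 2.075 CPM in CD4 CD5hi and 2.02 to 11.4 CPM in CD4 CD5lo libraries. Mean Myo1f amounted to 7.68% of mean Cd8b1 in CD4 CD5hi and 5.09% in CD4 CD5lo cells, and to 12.1% in CD8 CD5hi and 5.78% in CD8 CD5lo cells. Of mean Cd8a it amounted to 44.2% in CD4 CD5hi and 26.4% in CD4 CD5lo cells, against 7.23% in CD8 CD5hi and 3.88% in CD8 CD5lo cells, so that the ratio to Cd8a was higher in CD4 than in CD8 cells at both CD5 levels while the ratio to Cd8b1 was lower. The 15 myeloid markers summed to 48.15 to 54.55 CPM in CD4 CD5hi against 49.2 to 63.9 CPM in CD4 CD5lo libraries. With all libraries 0 of 14 tested were called, and without the B cell marker-rich ones 1 of 10, Lyz2, was called lower. Lyz2 stood at 0.047 to 0.15 CPM in CD4 CD5hi and 0.20 to 3.37 CPM in CD4 CD5lo libraries, which do not overlap. Cd8a and Cd8b1 were looked at here after their values were seen. Neither their part nor that of myeloid cells in the CD4 difference was tested.

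In CD8 libraries the genes of other cell states moved with Myo1f. At high CD5, 22 of 25 cell cycle genes were called higher, and their summed level was 802 to 1441 CPM in CD8 CD5hi against 618 to 714 CPM in CD8 CD5lo libraries. Of 11 tested effector and memory genes (12 listed) 6 were called higher, with sums of 917 to 1345 CPM in CD8 CD5hi against 444 to 673.5 CPM in CD8 CD5lo libraries. Among them Cd44, an adhesion receptor of activated T cells, was at 7.61 to 20.5 CPM in CD8 CD5hi against 2.70 to 7.35 CPM in CD8 CD5lo libraries. The 6 natural killer cell markers summed to 4.06 to 6.16 CPM in CD8 CD5hi against 0.58 to 2.30 CPM in CD8 CD5lo libraries. Of these only Klrb1c, named after its values were seen, had counts enough to be tested, and it was called higher, while Klra4 was at 0 in all 16 libraries. The 15 myeloid markers summed to 49.6 to 88.9 CPM in CD8 CD5hi against 53.4 to 76.25 CPM in CD8 CD5lo libraries, with 0 of 14 tested called. With an unadjusted p under 0.05 edgeR gave 1 of the 14, and DESeq2 and voom called 0. The part of these cells in the Myo1f difference was not tested.

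**Figure D3:**
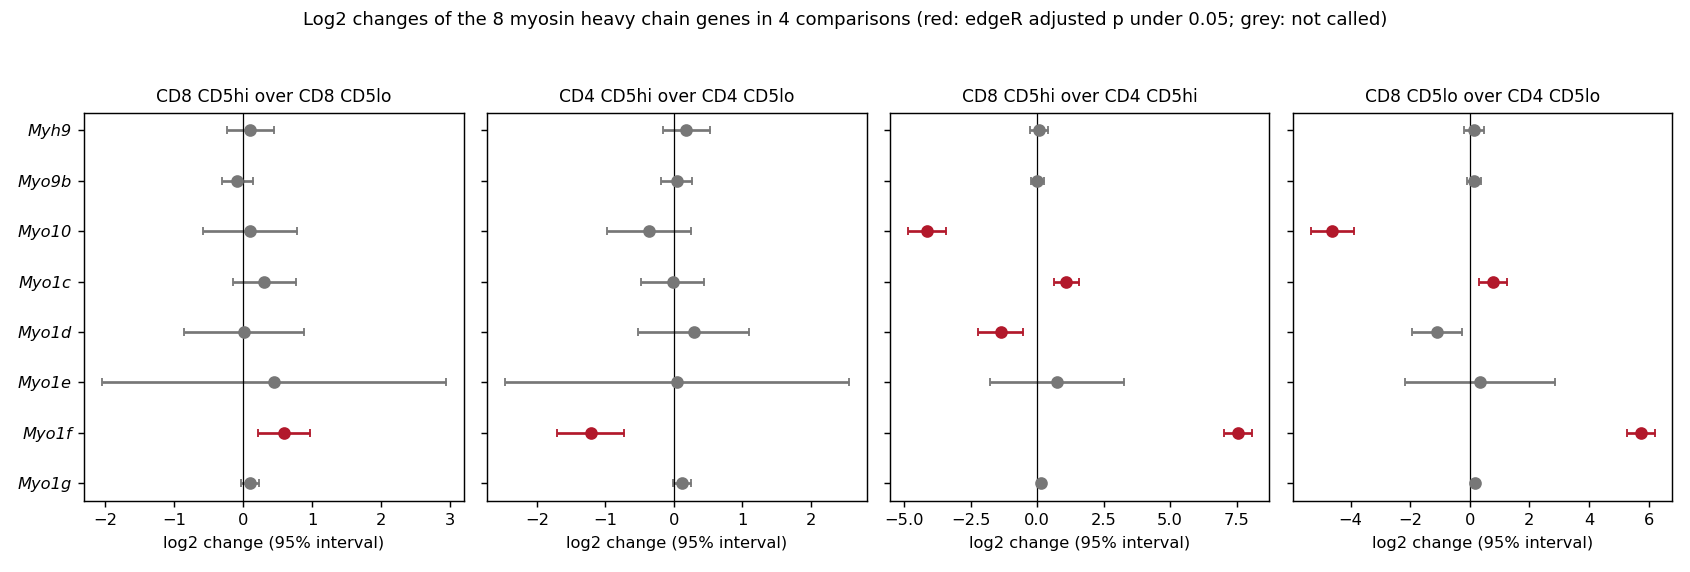
Log2 differences with 95% intervals of the 8 genes in 4 comparisons, CD5hi over CD5lo in CD8 and in CD4 cells and CD8 over CD4 at high and at low CD5; red points are called at an adjusted p under 0.05 and each panel has its own scale. Myo1f is on opposite sides of 0 in the CD8 and CD4 panels of the CD5 comparison, and the widest intervals are those of Myo1e.

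The other 7 genes were not called between CD5hi and CD5lo cells of either lineage, and the ranges of CD5hi and CD5lo libraries overlapped for all 7. For the abundant genes the intervals are narrow. In CD8 cells the log2 difference was 0.10 ± 0.06 for Myo1g (95% interval -0.03 to 0.23), -0.08 ± 0.11 for Myo9b (-0.31 to 0.15) and 0.11 ± 0.16 for Myh9 (-0.23 to 0.44). In CD4 cells it was 0.12 ± 0.06 for Myo1g (-0.01 to 0.25), 0.04 ± 0.11 for Myo9b (-0.19 to 0.27) and 0.18 ± 0.16 for Myh9 (-0.16 to 0.52). Myo1c differed by 0.31 ± 0.22 in CD8 and -0.02 ± 0.22 in CD4 cells, and Myo10 by 0.10 ± 0.32 in CD8 and -0.36 ± 0.29 in CD4 cells. Myo1d differed by 0.02 ± 0.41 in CD8 and 0.29 ± 0.38 in CD4 cells. For Myo1d the intervals ran from -0.85 to 0.88 in CD8 and from -0.52 to 1.10 in CD4 cells, so a 1.5-fold rise lies within both. The median of the 8 genes was 0.10 in CD8 and 0.04 in CD4 cells, against -0.003 and -0.007 for all tested genes.

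Within the groups, Myh9 and Myo9b were lowest in the same libraries. Replicate 1 was the lowest library for Myh9 in CD8 CD5hi (2066 CPM, others 2807 to 2964), CD8 CD5lo (1909, others 2618 to 2758) and CD4 CD5hi (2015, others 2666 to 2807). In CD4 CD5lo, replicate 2 was lowest (1744 CPM) and replicate 1 next (2010.0), with the others at 2614 and 2684 CPM. Myo9b had its lowest value in the same 4 libraries, at 310.7, 366, 351 and 303.5 CPM. With replicate number as a block the SE of Myh9 fell to 0.09 in both lineages, and the differences of 0.11 in CD8 and 0.18 in CD4 cells remained uncalled (adjusted p = 0.436 and 0.303).

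Myo1e, a long-tailed myosin of clathrin-mediated uptake and of podocytes, lies on chromosome 9 (70207350 to 70399766), and its highest values lay in the B cell marker-rich libraries. It had 0.54, 0.48, 0.42 and 7.48 CPM in CD8 CD5hi libraries, 0.29, 0.63, 5.49 and 0.15 CPM in CD8 CD5lo libraries, 1.09, 1.26, 1.57 and 1.396 CPM in CD4 CD5hi libraries, and 0.26, 0.54, 4.19 and 0.15 CPM in CD4 CD5lo libraries. The 3 highest of the 16 were the 3 B cell marker-rich libraries, in the order of their B cell marker sums. With all libraries no comparison of Myo1e was called, and the CD4 difference between CD5hi and CD5lo was 0.04 ± 1.19 (95% interval -2.47 to 2.56). Without the 3 libraries it was 2.06 ± 0.46, 4.18-fold higher in CD4 CD5hi cells (adjusted p = 0.0203), where 3.94% of tested genes were called. The 4 CD4 CD5hi libraries then lie above the other 3 CD4 CD5lo libraries without overlap, while B cell marker sums were 11.4 to 40.2 CPM in CD4 CD5hi and 22.3 to 40.05 CPM in these CD4 CD5lo libraries. This was the only call of Myo1e by CD5 in CD4 cells among 24 alternatives, and leaving out any 1 library alone gave no call. Regulatory T cell markers moved with Myo1e: 5 of 7 were called higher in CD4 CD5hi cells, both with all libraries and without the 3. Of all tested genes 2.68% were called higher with all libraries. Over all libraries the sums of these markers were 353 to 440.2 CPM in CD4 CD5hi and 115 to 145 CPM in CD4 CD5lo libraries. Foxp3, their defining transcription factor, stood at 14.4 to 22.1 CPM in CD4 CD5hi against 3.98 to 5.96 CPM in CD4 CD5lo libraries. Effector and memory genes moved too, with 4 of 11 tested called higher with all libraries and 3 of 11 without the 3. Over all libraries their sums were 203.7 to 242.2 CPM in CD4 CD5hi against 118.4 to 149.2 CPM in CD4 CD5lo libraries. In CD8 cells, where Myo1e was not called by CD5, 3 of 7 regulatory T cell markers were also called higher at high CD5. These summed to 186.5 to 204 CPM in CD8 CD5hi against 100.4 to 144.6 CPM in CD8 CD5lo libraries over all 7. The part of any of these cells in the Myo1e difference was not tested.

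Without the same 3 libraries Myo1e was also lower in CD8 than in CD4 cells at high CD5, with a log2 difference of -1.46 (adjusted p = 0.0219, with 30.3% of tested genes called), where the value with all libraries was 0.74 (adjusted p = 0.684). It was the only call of Myo1e in that comparison among 24 alternatives. Between CD8 CD5hi and CD8 CD5lo cells and between the lineages at low CD5 Myo1e was called neither with nor without the 3 libraries.

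**Figure D4:**
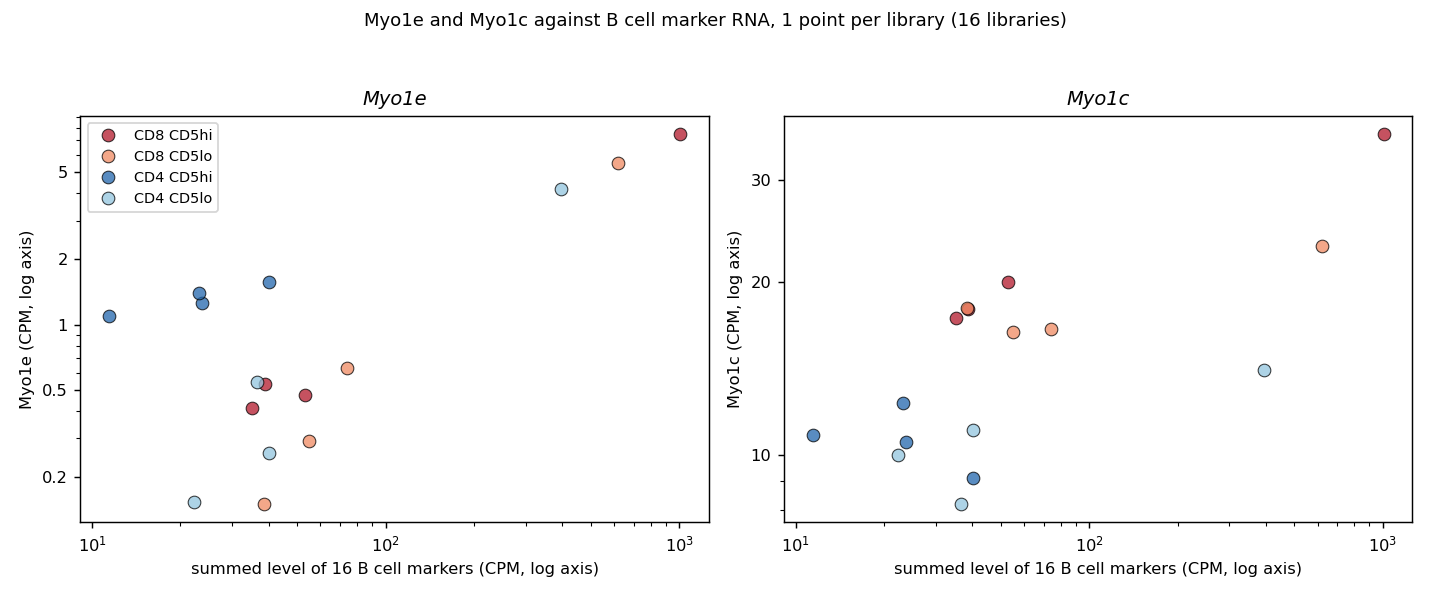
Myo1e (left) and Myo1c (right) in CPM against the summed level of 16 B cell markers in CPM, both on log axes, with 1 point per library coloured by group. The 3 libraries with sums of 395 CPM or more are highest for Myo1e, and among the others the 4 CD4 CD5hi libraries lie above the rest, at 1.09 to 1.57 CPM.

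For each gene the 2 tested genes with the most similar profile were found among 8959 genes with a mean of at least 5 CPM, by the root mean square difference of log2 CPM centred per gene over the 16 libraries. Likeness is read against the gene's own spread. For Myo1f, with a spread of 3.37, they were Haao, an enzyme of tryptophan breakdown (0.497), and Adgrg5, an adhesion receptor (0.542). Haao averaged 54.1 CPM in CD8 CD5hi, 60.2 in CD8 CD5lo, 0.53 in CD4 CD5hi and 1.28 in CD4 CD5lo cells, so its mean was lower in CD4 CD5hi than in CD4 CD5lo cells, as for Myo1f, and not higher in CD8 CD5hi than in CD8 CD5lo cells. For Myo10, with a spread of 2.26, they were Padi3, which converts arginine to citrulline (0.392), and Adam15, a membrane metalloprotease (0.554). For Myh9, with a spread of 0.24, they were Tln1, or talin, which couples integrins to actin (0.066), and the transcription factor Nfatc1 (0.082).

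For Myo1e the most similar were Cd79a, the signalling chain of the B cell receptor (0.935), and Swap70 (0.97), at distances not much under its spread of 1.61. Those of Myo1c (spread 0.543) were H2-Q5 (0.231), whose counts are uncertain because it has near-identical relatives, and the deubiquitinase Usp20 (0.242). Those of Myo1d (spread 0.734) were the formin Daam1 (0.378) and the cytokine signalling inhibitor Cish (0.398). Myo1g (spread 0.113) was closest to Pfkp, a phosphofructokinase (0.054), and Ap2m1, a clathrin adaptor subunit (0.058), and Myo9b (spread 0.151) to the potassium channel subunit Kcnab2 (0.048) and to Gcn1l1 (0.058).

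Other myosin heavy chains were called mostly between the lineages, as were genes at large. Of 30 on the list 17 were tested and 2 had no count in any library. Between CD8 CD5hi and CD4 CD5hi cells 3 were called higher and 6 lower, and between CD8 CD5lo and CD4 CD5lo cells 4 higher and 5 lower (3 and 4 without the B cell marker-rich libraries). Of all tested genes 30.3% were called at high CD5 and 19.5% at low CD5, against 9.46% by CD5 in CD8 and 4.08% by CD5 in CD4 cells. Whether these myosins differ more often than other genes was not tested. Myo6, which walks toward the minus end of actin, was 2.975-fold lower in CD8 cells at high CD5, with 1.98 to 3.125 CPM in CD8 CD5hi against 6.21 to 9.24 CPM in CD4 CD5hi libraries (log2 difference -1.57 ± 0.205, adjusted p = 2.19e-05). At low CD5 it was 6.905-fold lower, with 1.02 to 2.10 CPM in CD8 CD5lo against 9.88 to 13.9 CPM in CD4 CD5lo libraries (-2.79 ± 0.21, adjusted p = 8.7e-08).

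Higher in CD8 cells were Myo7a and Myo3b, which are known from sensory hair cells, and Myo18b, known from muscle. Myo7a had 5.86 to 10.45 CPM in CD8 CD5hi against 2.13 to 3.82 CPM in CD4 CD5hi libraries (log2 difference 1.57, adjusted p = 0.000133), and 7.79 to 13.2 CPM in CD8 CD5lo against 2.21 to 3.83 CPM in CD4 CD5lo libraries (1.88, adjusted p = 3.11e-05). Myo18b had 1.23 to 2.52 CPM in CD8 CD5hi against 0.23 to 0.90 CPM in CD4 CD5hi libraries (1.82, adjusted p = 0.000453) and 2.35 to 3.10 CPM in CD8 CD5lo against 0.35 to 0.50 CPM in CD4 CD5lo libraries (2.64, adjusted p = 2.17e-05). Myo3b was scarce, with 0.86 to 1.73 CPM in CD8 CD5hi against 0 to 0.13 CPM in CD4 CD5hi libraries (adjusted p = 2.79e-05). Myo5a, a vesicle carrier, was 1.31-fold lower in CD8 cells at high CD5 (adjusted p = 0.0159) and 1.85-fold lower at low CD5 (adjusted p = 2.54e-05). Myo18a, a non-motile relative of myosin II, was lower in CD8 cells at high CD5 (-0.60 ± 0.10, adjusted p = 0.000319), while at low CD5 it differed by -0.15 (adjusted p = 0.374).

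**Figure D5:**
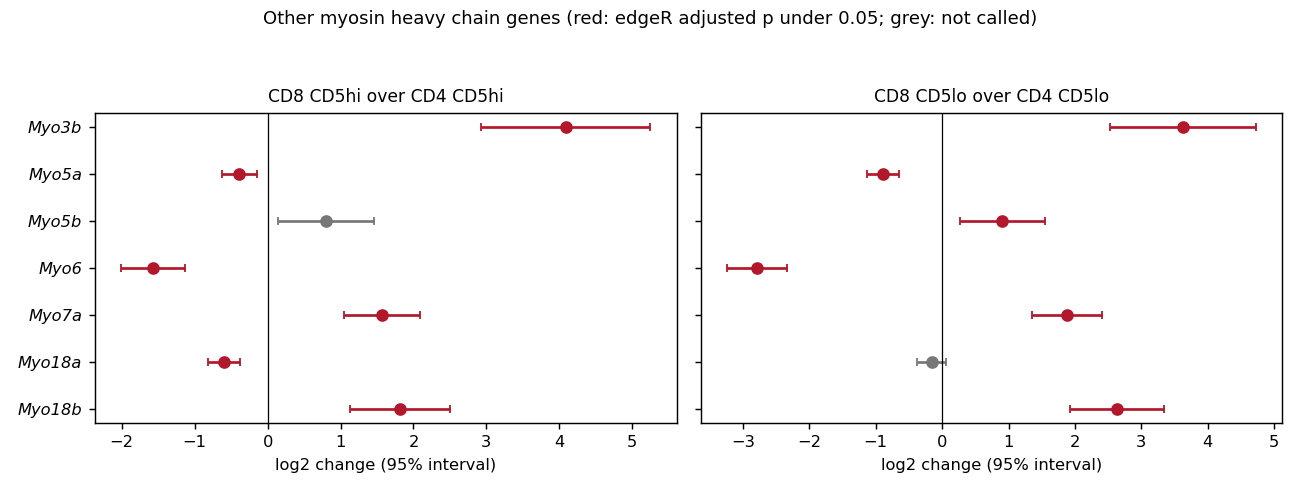
Log2 differences with 95% intervals of 7 other myosin heavy chain genes between CD8 and CD4 cells, at high CD5 (left) and low CD5 (right); red points are called at an adjusted p under 0.05. Myo3b, Myo7a and Myo18b lie to the right of 0 and Myo6 and Myo5a to the left in both panels.

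By CD5, edgeR called 2 of these 17 in CD8 cells, both lower, where 3.51% of all tested genes were called lower. Myo5b, a recycling endosome motor, had 0.37, 0.86, 0.80 and 0.83 CPM in CD8 CD5hi against 1.215, 1.92, 1.60 and 1.38 CPM in CD8 CD5lo libraries (log2 difference -1.09 ± 0.30, adjusted p = 0.032). Myo18a had 60.6, 71.85, 72.4 and 70.55 CPM in CD8 CD5hi against 82.4, 87.65, 87.8 and 92.1 CPM in CD8 CD5lo libraries (-0.35 ± 0.10, adjusted p = 0.0464). Neither pair of groups overlapped. Without the 3 B cell marker-rich libraries 0 of the 17 were called in CD8 cells, but the log2 differences were as large, at -1.13 ± 0.37 for Myo5b (adjusted p = 0.0665) and -0.34 ± 0.13 for Myo18a (adjusted p = 0.12). DESeq2 called both genes and also Myo6, higher in CD8 CD5hi cells, and voom called Myo5b and Myo18a. Myo6 differed by 0.61 ± 0.21 in CD8 cells, with an adjusted p of 0.08 by edgeR and 0.0338 by DESeq2. In CD4 cells edgeR called 0 of the 17, with 4 at an unadjusted p under 0.05, while DESeq2 called 2 (Myo5b and Myo6, both lower in CD4 CD5hi) and voom 1 (Myo6). Myo6 differed there by -0.61 ± 0.20 (adjusted p = 0.129 by edgeR and 0.0412 by DESeq2), and its CD5 effect in CD8 cells minus that in CD4 cells was 1.22 ± 0.29, with an adjusted p of 0.0957 by edgeR and 0.00399 by DESeq2. Myo5b differed in CD4 cells by -0.98 ± 0.31 (adjusted p = 0.109).

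Among 38 tested actin filament genes edgeR called 3 higher in CD8 CD5hi than in CD8 CD5lo cells, where 5.95% of all tested genes were called higher: Capzb, which caps filament ends (349 ± 16.2 CPM in CD8 CD5hi against 293 ± 10.9 CPM in CD8 CD5lo, adjusted p = 0.0141), the tropomyosin Tpm3 (751 ± 45.4 CPM in CD8 CD5hi against 653 ± 23.6 CPM in CD8 CD5lo, adjusted p = 0.0284) and the leukocyte bundling protein Lcp1 (1461 ± 111.6 CPM in CD8 CD5hi against 1218 ± 79.9 CPM in CD8 CD5lo, adjusted p = 0.0304; SD, n = 4 each). With an unadjusted p under 0.05 edgeR gave 14 of the 38, voom called the same 3, and DESeq2 called these and Actg1 and Msn, also higher. Without the B cell marker-rich libraries the 3 genes missed the threshold with log2 differences as large, at 0.26 ± 0.08 for Capzb (adjusted p = 0.0527), 0.23 ± 0.07 for Tpm3 (0.0513) and 0.26 ± 0.09 for Lcp1 (0.0847), against 0.26, 0.20 and 0.26 with all libraries. In CD4 cells 0 of 38 were called, with 3 at an unadjusted p under 0.05 and 0 by DESeq2 or voom. Their median log2 difference was 0.12 in CD8 and 0.085 in CD4 cells.

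Of 11 tested myosin light chains and calmodulins and 23 kinases, phosphatase subunits and other regulators, 0 were called by CD5 in either lineage. In CD8 cells 3 light chains or calmodulins and 2 regulators had an unadjusted p under 0.05, and DESeq2 called 0 and 1 (Ppp1r12b, lower). In CD4 cells 0 and 3 had an unadjusted p under 0.05 and DESeq2 called 0 and 1 (Pak2, higher), and voom called 0 of either list in either lineage. Without the 3 B cell marker-rich libraries edgeR called 3 of these genes in CD8 cells, the light chain Mylpf lower and the kinase Cdc42bpb and the myosin IIA-binding S100a4 higher in CD8 CD5hi than in CD8 CD5lo cells, and 0 in CD4 cells. Between the lineages more were called, at high CD5 with 0 light chains higher and 2 lower, and 4 regulators higher and 7 lower in CD8 cells. At low CD5 the counts higher and lower were 0 and 1 for light chains, and 2 and 4 for regulators. Myl4 was called lower in CD8 cells in both comparisons, and Myl10 at high CD5. Cdc42bpg and Dapk2 were higher in CD8 cells in both, with Ppp1r14b and S100a4 at high CD5, and Dapk1, Cdc42bpa, Cdc42bpb and Mylip were lower in both. Without the 3 B cell marker-rich libraries 1 light chain was lower in CD8 cells at high CD5, and 3 regulators were lower at low CD5, while the other counts stayed at these numbers. The genes named in this paragraph were chosen after their values were seen. The shares of all tested genes called in these comparisons, given above, apply to these lists too.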

How the data were processed

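RNA was sequenced in 16 libraries. TRIzol and RNeasy were used to extract RNA, and the TruSeq kit was RNA v2 or stranded mRNA, per the labels' protocols. The sources used here give neither the kit of each library nor whether counting used strand. The submitters' processing notes name mm10 as the build, and as tools featureCounts 1.4.6-p3, STAR 2.5.2a and DESeq2. The deposited counts, whole numbers not normalised by the authors as far as the values show, are 1 column per sample, although the design names 2 technical runs. No column lacked a sample. Low counts (1 to 9) were even in 73.9 to 80.5% of cases, so halved counts were an alternative.

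Differences were tested with edgeR 4.0.16 (R 4.3.3): TMM, filterByExpr (minimum count 10, minimum total 15, leaving 13554 genes), 1 term per group over all 16 libraries and the quasi-likelihood F test. Two-sided p-values were adjusted (Benjamini-Hochberg) over all tested genes, separately in each of 5 comparisons, with a threshold of 0.05. Alternatives were RLE and upper quartile scaling, no filter, halved counts, DESeq2 1.42.0, voom of limma 3.58.1, only the groups compared, a replicate block, each library left out, and the 3 B cell marker-rich libraries left out. Same-numbered samples deviated together in CD4 CD5hi and CD4 CD5lo (r over genes 0.251 to 0.534), in CD8 CD5lo and CD4 CD5lo (0.203 to 0.704) and in CD8 CD5hi and CD4 CD5hi (0.235 to 0.538), so the numbers were taken to pair these groups. The main test has no term for this pairing, which enters only through the replicate block. The edgeR procedure was also run on counts simulated as independent samples, with no replicate pairing and no B cell marker-rich library. That run therefore cannot show how such pairing or libraries affect the results.

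The 8 genes and the lists were chosen with earlier results of these data known. Named are the 8 genes, Cd5, list genes called in a CD5 comparison (up to 4 per list and comparison), the same for other myosin heavy chains between lineages, the 2 most similar genes of each of the 8, and Cd74, Cd79a, Lyz2, Mki67, Foxp3 and Cd44. Any other gene was chosen after its values were seen. Exons, positions and transcripts are from GENCODE vM21 (GRCm38, 1-based), promoters from RefSeq.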

Additional observations from a re-analysis of the deposited data

Results flagged for a closer look

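In groups of 4, a library was flagged when it lay far from the other 3 by Dixon's criterion. Of 76 sets checked (19 genes in 4 groups) 11 held such a library, among them 7 of the 32 sets of the 8 myosin genes, where chance flags about 1 in 20. The sets share the same libraries and are not independent, so these counts do not measure an excess over chance. The 3 B cell marker-rich libraries account for 5 of the 11. Myo1e was flagged in all 3, at 7.48 CPM in CD8 CD5hi replicate 4, 5.49 CPM in CD8 CD5lo replicate 3 and 4.19 CPM in CD4 CD5lo replicate 3. Myo1c was flagged in CD8 CD5hi replicate 4 at 36.1 CPM and Myo7a in CD4 CD5lo replicate 3 at 3.83 CPM.

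The other 6 were low values of a replicate 1. They were Myo9b in CD8 CD5hi (310.7 CPM) and CD8 CD5lo (366 CPM), Myh9 in CD8 CD5lo (1909 CPM), Myo18a in CD8 CD5hi (60.6 CPM), and Myo5b in CD8 CD5hi (0.37 CPM) and CD4 CD5lo (0.59 CPM). Myo1f was flagged because its CD5 effect differed between the lineages by a test of the difference itself, 1.81 on the log2 scale, with all 4 CD8 CD5hi libraries above all CD8 CD5lo libraries and all 4 CD4 CD5hi libraries below all CD4 CD5lo libraries.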

How the results depend on the processing

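Over 25 alternatives at most per value, Myo1f and Myo10 kept direction and call between the lineages in each one. The number of the 8 genes called between CD4 CD5hi and CD4 CD5lo cells was 0 with voom, 0 with only the groups compared and 2 without the 3 B cell marker-rich libraries, against 1; the last adds Myo1e, and the cause of the others was not tested. Between CD8 CD5lo and CD4 CD5lo cells it was 5 with the replicate block, against 3. Leaving out 1 library at a time gave 1 to 1 calls for CD5 in CD4 cells, 0 to 1 in CD8 cells, 0 to 1 for the difference between the CD5 effects, 2 to 5 between lineages at low CD5 and 3 to 5 at high CD5. Between CD8 CD5hi and CD8 CD5lo cells, same-numbered samples had r of 0.562, 0.255, 0.027 and -0.04 for replicates 1 to 4. Since CD8 CD5lo replicate 3 and CD8 CD5hi replicate 4 are B cell marker-rich, the low r of replicates 3 and 4 cannot decide whether these samples are paired. The replicate block left the count at 1. It changed no call of the 8 genes beyond those given for Myo1d and Myo1g.

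No called value changed direction, apart from Myo1e, which is called without the 3 B cell marker-rich libraries. Without these libraries, signs turned to 0.13 for Myo1c by CD5 in CD4 cells, -9e-04 for its difference between the CD5 effects, -1.63 for that of Myo1e, -1.46 for Myo1e between CD8 CD5hi and CD4 CD5hi cells and -0.0053 for Myo9b there. With voom they turned to -0.59 for the difference between the CD5 effects of Myo1e and -0.50 for Myo1e between CD8 CD5hi and CD4 CD5hi cells, and with no filter to 0.0013 for the difference between the CD5 effects of Myo1g. Leaving out single libraries, log2 values crossed 0 by CD5 in CD8 cells for Myo10 (-0.18 to 0.47), Myo1c (-0.0054 to 0.43), Myo1d (-0.27 to 0.38), Myo1e (-1.77 to 2.63) and Myo9b (-0.12 to 0.017). They crossed it by CD5 in CD4 cells for Myo1c (-0.13 to 0.13), Myo1e (-0.33 to 2.06) and Myo9b (-0.045 to 0.099), and for the difference between the CD5 effects for Myh9 (-0.17 to 0.036), Myo1d (-0.56 to 0.095), Myo1e (-1.82 to 2.59) and Myo1g (-0.053 to 0.021). Between the lineages they crossed it at high CD5 for Myh9 (-0.037 to 0.17), Myo1e (-1.48 to 1.10) and Myo9b (-0.026 to 0.11), and at low CD5 for Myo1e (-1.84 to 2.36). DESeq2 gave Myo1e no adjusted p.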
